A study of Mus musculus with 6 samples.

Results

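The slit diaphragm genes described here are 7 genes of the nephrin, Neph and junction scaffold families: Nphs1, Kirrel, Kirrel3, Tjp1, Magi1, Magi3 and Fat1. They were chosen by name, and every probe set that the array annotation assigns to exactly 1 of them was taken. This gave 16 of the 45101 probe sets on the array, and 7 of the 18194 genes that a probe set stands for alone. The arrays compare glomerular mRNA between mice with and without dendrin, a cytoplasmic protein of the slit diaphragm. Glomeruli were isolated from 3 dendrin knockout mice and from 3 littermate control mice, all 13 months old and labelled with the genetic background 129S6SvEv/C57BL6, with 1 Affymetrix mouse whole-genome array per mouse. In the knockout mice the whole coding sequence of dendrin had been exchanged in the germline for an eGFP and neomycin resistance cassette, so that every cell carries the change, and the line, which descends from targeted embryonic stem cells, had per the study's methods been crossed back to C57BL/6. The controls came from the same matings of heterozygous parents. No source used here names the sex of the mice.

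The slit diaphragm is the cell junction that bridges the gaps between neighbouring foot processes of podocytes, the epithelial cells that cover the glomerular capillaries, and it is a part of the filter that retains plasma proteins. Its core is made by nephrin and the Neph proteins, transmembrane proteins of the immunoglobulin superfamily that bind each other across the gap. Inside the cell, scaffold proteins such as zonula occludens-1 and the Magi proteins hold these receptors at the junction and link them to the actin cytoskeleton, while Fat1 is a giant protocadherin found at the same junction. Dendrin binds nephrin and Cd2ap on the cytoplasmic side. In human patients, loss of nephrin causes congenital nephrotic syndrome of the Finnish type.

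The promoters of Nphs1 and Kirrel are shown because these genes had the highest correlation of any member pair over the 6 mice. Each window runs from 250 bases before to 50 bases after 1 annotated RefSeq start, on the GRCm38.p6 build, and reads in the direction of the gene. The Nphs1 window is chr7:30459808-30460107 on the plus strand, and the Kirrel window is chr3:87174488-87174787 on the minus strand. Both starts lie inside the annotated span of their gene. Capitals mark the letters GGGAGGG.
Nphs1: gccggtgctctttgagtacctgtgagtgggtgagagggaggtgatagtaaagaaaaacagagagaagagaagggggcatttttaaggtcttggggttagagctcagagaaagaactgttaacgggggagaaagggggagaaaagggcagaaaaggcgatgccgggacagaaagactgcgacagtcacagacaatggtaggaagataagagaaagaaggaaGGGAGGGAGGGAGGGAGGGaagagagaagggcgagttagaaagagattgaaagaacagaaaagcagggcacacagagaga
Kirrel: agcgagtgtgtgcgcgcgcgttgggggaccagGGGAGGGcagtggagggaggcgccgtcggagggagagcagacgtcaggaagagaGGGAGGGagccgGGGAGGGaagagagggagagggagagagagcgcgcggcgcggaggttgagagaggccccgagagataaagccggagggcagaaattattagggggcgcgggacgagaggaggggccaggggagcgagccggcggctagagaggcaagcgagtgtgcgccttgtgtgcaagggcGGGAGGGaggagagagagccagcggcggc

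The windows differ in composition. The Nphs1 window holds 49.7% G and C with 6 CpG dinucleotides, against a median of 52.7% and 7 over the 32851 promoter windows of this length, and the Kirrel window holds 69.3% with 28. The purine-rich run GGGAGGG was picked after the sequences had been read. Counting overlapping copies on both strands, it occurs 4 times in each, in Nphs1 as 1 uninterrupted repeat and in Kirrel at 4 separate places. It is found in 22% of all promoter windows, so that its presence is a description of these sequences and not a site. Of the 7 members, 6 were matched in the promoter table with 7 windows, of which 5 held it on either strand. The windows of Tjp1 and Fat1 did not.

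Dendrin mRNA, the check of the genotype labels, was dim in all 3 knockout mice and far above that level in the controls. Ddn, on chromosome 15, had GCRMA values of 3.80, 3.81 and 3.80 in knockout mice, against 12.22, 12.81 and 12.31 in control mice. GCRMA values are background-corrected and normalized probe set intensities on the log2 scale, so that a difference of 1 is a doubling. The Ddn difference was -8.64 (standard error 0.18, limma adjusted p = 0.0197), or at least 349-fold lower against the dim level. With any 1 array other than control 2 left out it was -8.76 to -8.64, with an adjusted p of 0.0771 to 0.192. Where the Ddn probes lie relative to the replaced sequence is not known here. Probe sets with a mean under log2 4 over the 6 arrays are called dim here, and 56.5% of all probe sets on the array are dim.

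Of the 7 genes, 5 gave a signal above the dim level and 2 did not. The 6 probe sets above it belong to Nphs1, Kirrel, Tjp1, Magi3 with 2 probe sets, and Fat1. Every probe set of Kirrel3 and Magi1 was dim. None of the 16 probe sets passed an adjusted p under 0.05, which 0.00222% of all probe sets did, and none passed a fold over 1.5 together with an unadjusted p under 0.05, which 0.18% of all probe sets and 0.382% of those above the dim level did. The count at an unadjusted p under 0.05 was also 0, against 3.63% of all probe sets, and SAM, the test named in the study's methods, gave 0 past either threshold, with 1 member, Kirrel, at an unadjusted p of 0.0479. Among the 6 probe sets above the dim level, 3 were higher and 3 lower in knockout than in control glomeruli, with differences of a median size of 0.097, against 0.09 over all 19619 probe sets above the dim level. The 95% interval of each of the 6 differences lay within 1.5-fold in either direction. The groups were apart for 1 of the 6, Kirrel, with every knockout value above every control value, as in 8.03% of the probe sets above the dim level. None had every knockout value below every control value, as 5.65% did (13.7% in either direction).

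**Figure D1:**
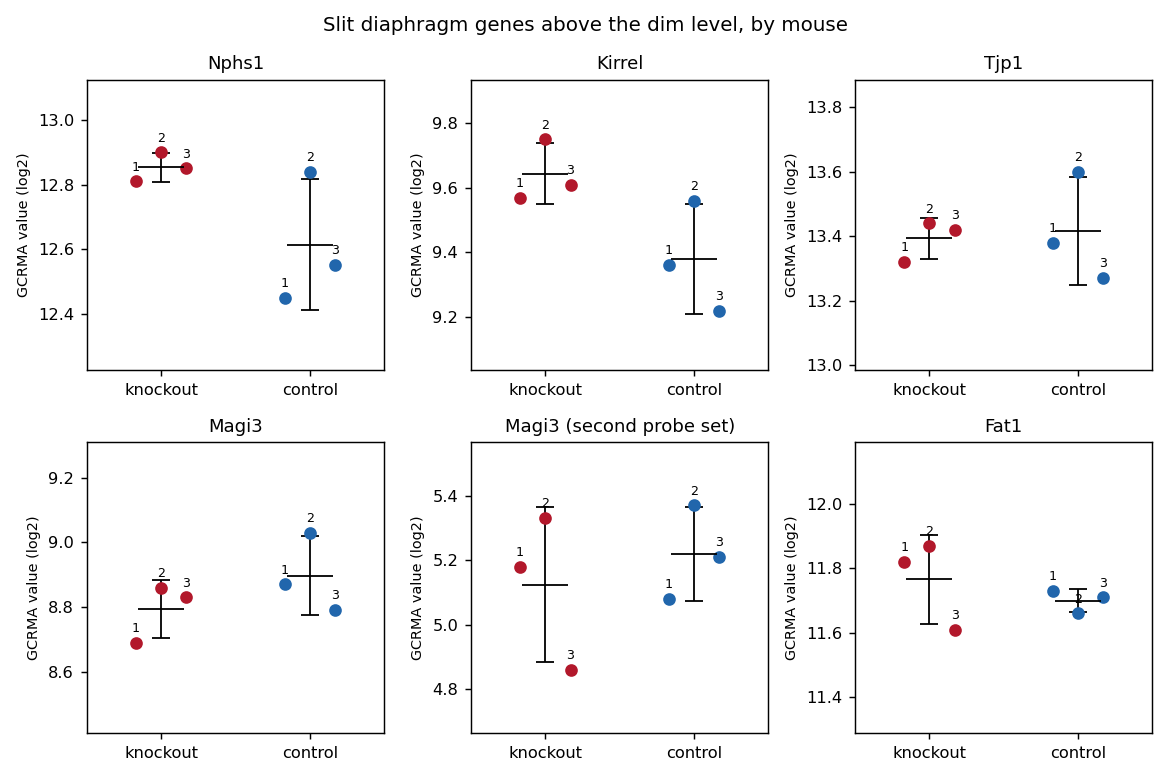
GCRMA value (log2) of the 6 slit diaphragm probe sets above the dim level in each of the 3 knockout mice (red) and the 3 control mice (blue), numbered by replicate, with the group mean and SD. Each axis spans the same range around its own gene, and the groups are apart only for Kirrel, where the lowest knockout value exceeds the highest control value by 0.01.

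The genes of nephrin and Neph1, the paired adhesion receptors of the junction, gave the largest differences among the members, both higher in knockout. Nphs1, which encodes nephrin, lies at chr7:30458207-30488623 and has 1 probe set, 1422142_at. Its values were 12.81, 12.90 and 12.85 in knockout mice, against 12.45, 12.84 and 12.55 in control mice. The knockout mice lay close together, and control 2 fell among them while the other 2 control mice were lower. The mean was 12.85 ± 0.0476 in knockout and 12.61 ± 0.202 in control glomeruli (SD, n = 3 mice each). The difference of 0.24 (standard error 0.12, 95% interval -0.07 to 0.55) is a 1.18-fold higher value and missed the threshold before and after correction (limma adjusted p = 1). The exact permutation test gave a two-sided p of 0.2, where 0.1 is the smallest that 3 mice against 3 allow.

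Kirrel encodes Neph1, the partner that binds nephrin through its extracellular domain, and lies at chr3:87078593-87174777. Probe set 1434797_at gave 9.57, 9.75 and 9.61 in knockout mice, against 9.36, 9.56 and 9.22 in control mice. Every knockout mouse was above every control mouse, by a margin of 0.01 between knockout 1 and control 2. The mean was 9.64 ± 0.093 in knockout and 9.38 ± 0.17 in control glomeruli (SD, n = 3 mice each). The difference was 0.26 (standard error 0.11, 95% interval -0.031 to 0.55, limma adjusted p = 1, two-sided exact permutation p = 0.1), or 1.2-fold. The other probe set of Kirrel, 1423015_at, was dim, with 2.42, 2.44 and 2.46 in knockout mice, against 2.36, 2.49 and 2.44 in control mice. Its difference of 0.011 had the same sign, at a level where the array gives no signal to compare, so that the 2 probe sets of this gene cannot be set against each other.

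For both receptors the difference depended on the mice included and was largest without control 2. Without it, Nphs1 was higher in knockout by 0.35 (standard error 0.05, 95% interval 0.20 to 0.50, limma adjusted p = 0.531, under 0.05 before adjustment) and its groups no longer overlapped. Kirrel was likewise higher by 0.35 without it (limma adjusted p = 0.712, under 0.05 before adjustment). With that mouse left out, 20.7% of the probe sets above the dim level were higher in all knockout than in all remaining control mice. Leaving out each mouse in turn, the difference stayed positive in all 6 fits for both genes. It lay between 0.16 (without control 1) and 0.35 for Nphs1, and between 0.18 (without control 3) and 0.35 for Kirrel. The groups of Kirrel, apart with all 6 mice, cannot come to overlap when a mouse is left out, so their separation in these fits adds nothing. Those of Nphs1 were apart only without knockout 1 or control 2.

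Control 2 also stood apart in the markers of other cells. Markers of the loop of Henle, distal tubule and collecting duct were above their mean over the 6 arrays by a median of 1.53 in this mouse, those of the proximal tubule by 1.15, and leukocyte markers had a median of -1.69. In the other 5 mice these medians lay between -0.45 and -0.21, between -0.58 and -0.014, and between -0.16 and 0.74. The part of these cells in the values of the slit diaphragm genes was not tested.

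Kirrel3, which encodes the related protein Neph2, lies at chr9:34485853-35040807 and was not measurable with its 3 probe sets. Probe set 1452728_at was at 2.23, 2.23 and 2.31 in knockout mice, against 2.23 in each control mouse, and the other 2 stood at 2.20 on all 6 arrays. Such a constant value is the floor that GCRMA leaves where no signal exceeds the background. The probe sets of Kirrel3 thus set no direction, and a level under this floor was not detectable.

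The genes of the scaffold proteins of the junction showed no separation between the groups. Tjp1, at chr7:65296165-65527850, encodes zonula occludens-1, which binds the cytoplasmic tail of Neph1 and is also a tight junction protein of many other cells of the kidney. Its probe set 1417749_a_at gave 13.32, 13.44 and 13.42 in knockout mice, against 13.38, 13.60 and 13.27 in control mice. The control mice spanned the whole range of the knockout mice. The mean was 13.39 ± 0.0608 in knockout and 13.41 ± 0.169 in control glomeruli (SD, n = 3 mice each). The difference of -0.02 (standard error 0.1, 95% interval -0.29 to 0.25, limma adjusted p = 1, exact permutation p = 0.9) has no settled sign: it was 0.072 without control 2, 0.015 without knockout 1 and 0.023 with array weights.

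Magi1 and Magi3 encode membrane-associated guanylate kinases, multidomain scaffolds with inverted domain order. Magi1 lies at chr6:93675453-94283929. All of its 5 probe sets were dim, with values between 2.20 and 2.61 and differences of at most 0.034 in size. Probe set 1451893_s_at was at 2.61 in all 3 knockout mice, and at 2.61, 2.50 and 2.61 in control mice. Among the others, 2 moved by under 0.015 on a single array each and 2 were constant at 2.20. No direction can be read from them.

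Magi3, at chr3:104013259-104220406, was the only member with 2 probe sets above the dim level. Probe set 1435461_at gave 8.69, 8.86 and 8.83 in knockout mice, against 8.87, 9.03 and 8.79 in control mice. Knockout 1 was the lowest and control 2 the highest, and the groups overlapped. The mean was 8.80 ± 0.0895 in knockout and 8.90 ± 0.12 in control glomeruli (SD, n = 3 mice each), a difference of -0.10 (standard error 0.083, 95% interval -0.33 to 0.12, limma adjusted p = 1, exact permutation p = 0.4).

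Probe set 1421035_a_at of Magi3 gave 5.18, 5.33 and 4.86 in knockout mice, against 5.08, 5.37 and 5.21 in control mice. Knockout 3 was low and the other mice of both groups were intermingled. The mean was 5.13 ± 0.238 in knockout and 5.22 ± 0.145 in control glomeruli (SD, n = 3 mice each). Its difference of -0.092 (standard error 0.15, 95% interval -0.51 to 0.33, limma adjusted p = 1, exact permutation p = 0.6) had the sign of the other probe set over all mice, and became 0.039 without knockout 3. Over the 6 arrays the 2 probe sets of Magi3 were loosely related (Pearson r = 0.36, Spearman rho = 0.37, exact permutation p = 0.482 and p = 0.497). A further probe set, 1450101_a_at, annotated to the same sequence record as 1421035_a_at, was dim at 2.21 on 5 arrays and at 2.29 in control 1.

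Fat1, at chr8:44933100-45052257, encodes a protocadherin whose loss in mice abolishes the slits between foot processes. Its probe set 1433857_at gave 11.82, 11.87 and 11.61 in knockout mice, against 11.73, 11.66 and 11.71 in control mice. The control mice were within 0.0729 of each other, and the knockout mice lay on both sides of them. The mean was 11.77 ± 0.137 in knockout and 11.70 ± 0.0377 in control glomeruli (SD, n = 3 mice each). The difference was 0.067 (standard error 0.079, 95% interval -0.15 to 0.28, limma adjusted p = 1, exact permutation p = 0.5). Without knockout 3 it was 0.14 with no overlap (limma adjusted p = 1, under 0.05 before adjustment). The share of all probe sets apart without knockout 3 is not given here. With control 2 left out instead, 20.7% of the probe sets above the dim level were higher without overlap.

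**Figure D2:**
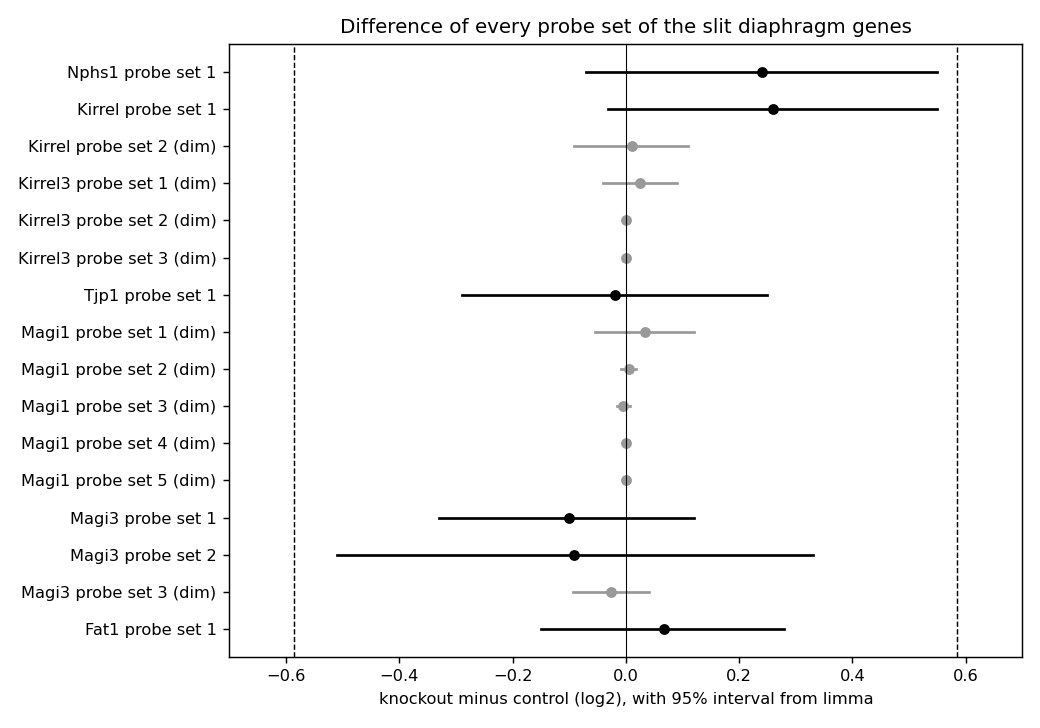
Difference between knockout and control glomeruli (log2, knockout minus control) of each of the 16 probe sets, with its 95% interval from limma; dim probe sets are grey and the dashed lines mark 1.5-fold. The intervals of the 6 probe sets above the dim level all cross 0 and end inside the dashed lines, and the dim probe sets sit within 0.034 of 0.

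**Figure D3:**
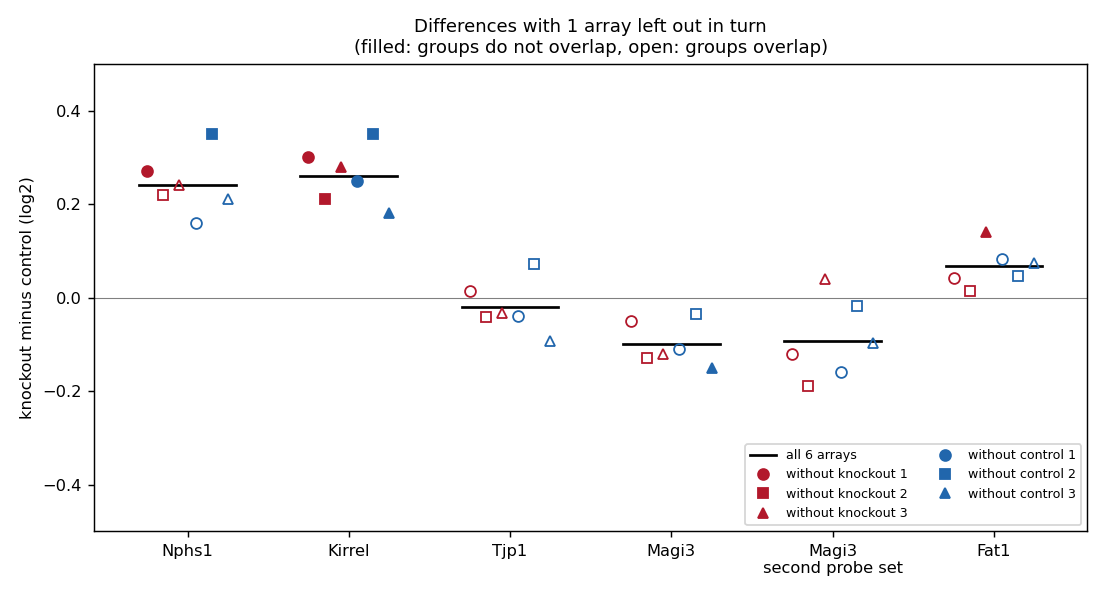
Difference between knockout and control glomeruli (log2) of the 6 probe sets above the dim level with each mouse left out in turn (points) and with all 6 (bars). Nphs1 and Kirrel stay above 0 and are largest without control 2 (0.35 for both), while Tjp1 and the second probe set of Magi3 are found on both sides of 0.

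The arrays hold RNA of whole glomeruli, in which fewer cells of a type and less RNA per cell cannot be told apart, so the members were also read against other podocyte genes. Of 20 podocyte genes listed, such as Wt1, a transcription factor, Synpo, an actin-associated protein, and Podxl, the main sialoprotein of the podocyte surface, 19 were matched and all of these were above the dim level. Against control, 17 were higher and 2 lower in knockout, with a median difference of 0.12 (0.044 without control 1, 0.20 without control 2 and 0.055 without control 3), and none passed an unadjusted or adjusted p under 0.05. Their summed level was log2 17.38 to 17.44 in knockout mice, against 17.25 to 17.51 in control mice. The median deviation of these genes from their mean over the 6 arrays was 0.036, 0.07 and 0.05 in the knockout mice and -0.14, 0.11 and -0.15 in control mice. The knockout mice were alike, and control 1 and control 3 were low (difference 0.11, exact permutation p = 0.4).

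Nphs1 and Kirrel were, like these podocyte genes, low in control 1 and control 3. The correlation with it was r = 0.95 for Nphs1 (exact permutation p = 0.0292, rho = 0.77 with p = 0.103) and r = 0.88 for Kirrel (exact permutation p = 0.0264, rho = 0.66 with p = 0.175), over 6 arrays and with both groups pooled, since 3 arrays of a group are too few for a value of their own. Both relations rested on control 1 and control 3, without which r was 0.25 for Nphs1 and -0.05 for Kirrel. Tjp1 was related to the podocyte genes by r = 0.73 (exact permutation p = 0.0958, rho = 0.94 with p = 0.0167), and by 0.98 without these 2 mice. For the lead probe set of Magi3 this r was 0.32, and 0.97 without them. It was 0.25 for the second probe set of Magi3 and 0.04 for Fat1. The correlation between Nphs1 and Kirrel was 0.89 (exact permutation p = 0.0278, rho = 0.89 with p = 0.0333) and 0.92 without the same 2 mice. Tjp1 and Magi3 formed another pair (r = 0.87, exact permutation p = 0.0472, rho = 0.77 with p = 0.103, r = 0.78 without control 2 and control 3). Nphs1 was related to Magi3 by an r of 0.11 and to Fat1 by 0.13. A total of 21 such relations were computed, and none passed correction over them (lowest adjusted p = 0.204 for r and 0.35 for rho).

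**Figure D4:**
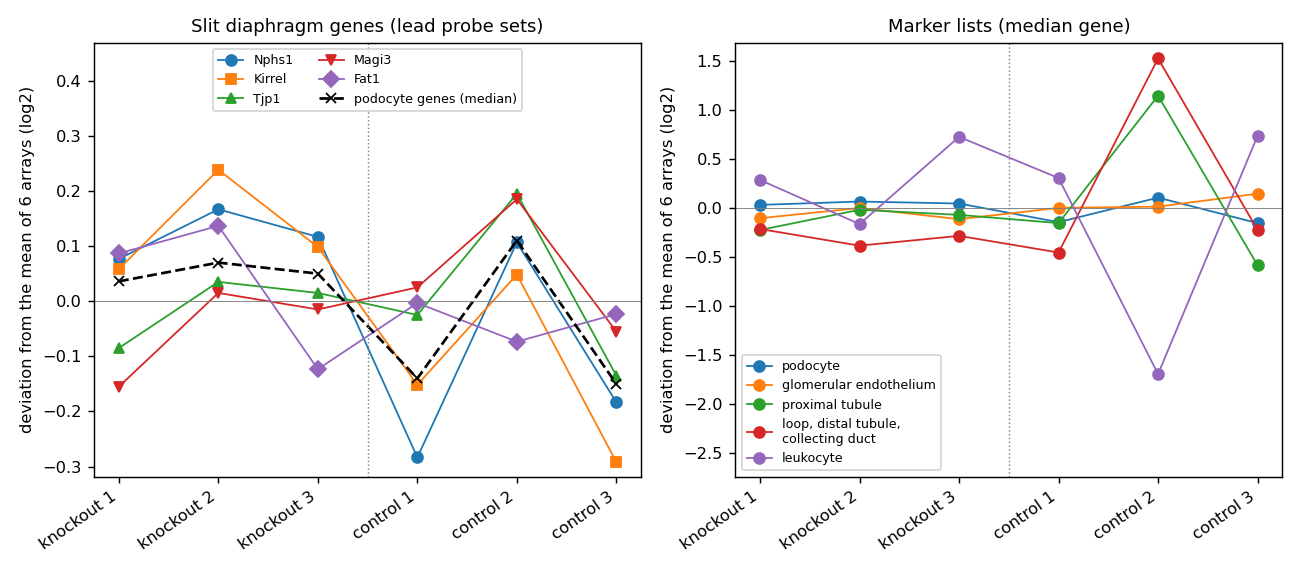
Deviation from the mean of the 6 arrays (log2) in each knockout and control mouse, for the lead probe sets of the 5 measurable slit diaphragm genes with the median of the podocyte genes (left) and for the median gene of 5 marker lists (right). Nphs1 and Kirrel are low in control 1 and control 3 as are the podocyte genes, and control 2 is high in tubule markers and low in leukocyte markers.

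The members were then set relative to the podocyte genes of the same array, by subtracting the median deviation of these genes on an array from each value of that array. The subtraction lowers the difference between knockout and control by 0.11 for every probe set. It makes the differences of Nphs1 and Kirrel smaller and gives Tjp1, whose sign was not settled before it, a negative one. Nphs1 was then at 12.77, 12.83 and 12.80 in knockout mice, against 12.59, 12.73 and 12.70 in control mice, a difference of 0.13. Kirrel was at 9.53, 9.68 and 9.56 in knockout mice, against 9.50, 9.45 and 9.37 in control mice, a difference of 0.15. In both, every knockout mouse was above every control mouse. The lowest knockout and highest control values were 12.77 and 12.73 for Nphs1, and 9.53 and 9.50 for Kirrel. Of all probe sets above the dim level, 1.36% were higher without overlap on this scale. Shares on this scale include probe sets that do not follow the podocyte genes. They are thus not a like background for genes whose spread the subtraction narrows.

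On the same scale Tjp1 was at 13.29, 13.36 and 13.37 in knockout mice, against 13.51, 13.49 and 13.42 in control mice, a difference of -0.13. Magi3 by its lead probe set was at 8.66, 8.79 and 8.78 in knockout mice, against 9.01, 8.92 and 8.94 in control mice, a difference of -0.21. Here every knockout mouse was below every control mouse, as in 13.4% of the probe sets above the dim level, against 5.65% before the subtraction. With all 6 mice, these scaffold genes were separated on this scale and not on the original one. The second probe set of Magi3 differed by -0.20 with overlap (exact permutation p = 0.3) and by -0.073 without knockout 3. Fat1 differed by -0.044 (exact permutation p = 0.6), and its sign turned without knockout 3 (0.033), control 1 (0.011) or control 3 (0.0073), while it was -0.15 without control 2. For the 4 genes without overlap the exact permutation p was 0.1, the smallest this design can give. The range over the control mice shrank with the subtraction, to 0.142 against 0.389 before it for Nphs1, to 0.133 against 0.34 for Kirrel and to 0.0946 against 0.332 for Tjp1, but widened for Fat1 to 0.319 against 0.0729. Since these genes share the subtracted value, their differences are not independent of each other.

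**Figure D5:**
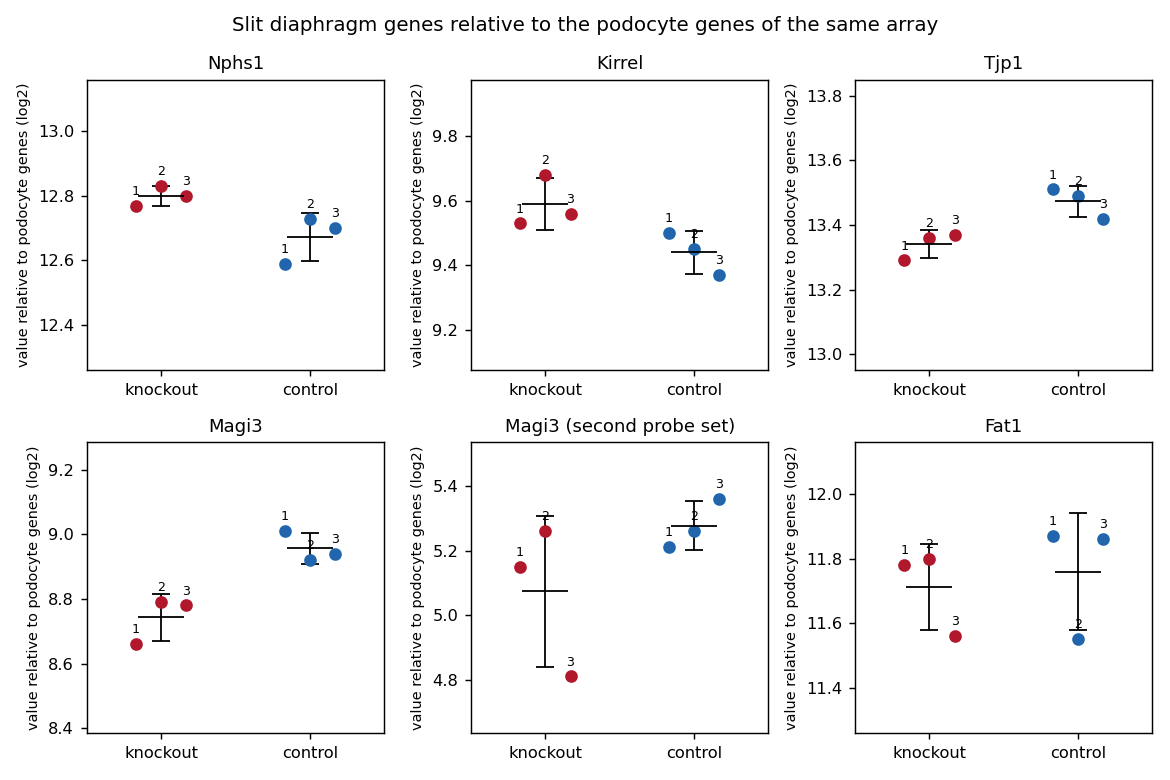
Values of the 6 probe sets above the dim level (log2) after subtraction of the median deviation of the podocyte genes on the same array, in each knockout mouse (red) and control mouse (blue), with group mean and SD. Nphs1 and Kirrel lie higher and Tjp1 and the lead probe set of Magi3 lower in all knockout than in all control mice, by 0.13, 0.15, -0.13 and -0.21.

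Among the markers of other glomerular cells, those of endothelium leaned lower in knockout. Of 10 markers of glomerular endothelium, which also makes zonula occludens-1, all were above the dim level, 9 were lower and 1 was higher in knockout, and the median difference was -0.13, or -0.056 without control 3 and -0.086 without knockout 3. In 4 of them all knockout mice were below all control mice, as in 5.65% of the probe sets above the dim level, with an unadjusted limma p under 0.05, as in 8.12%. These were Kdr (-0.22), Tek (-0.18), Flt1 (-0.18) and Emcn (-0.079), the first 3 being receptors for vascular growth factors, each with an adjusted p of 1. Tie1 had the largest difference of the list (-0.23), with overlap, and the 1 higher marker was Esam (0.15). The summed level of the list was log2 15.96 to 16.05 in knockout mice, against 16.04 to 16.15 in control mice. Of 8 mesangial and smooth muscle markers, 5 were higher and 2 were lower, with a median of 0.025 (-0.0018 to 0.098 with 1 array left out), and 1, Cnn1, was at the floor. For Tagln, an actin-binding protein of smooth muscle, every knockout value was above every control value. The same held for 8.03% of the probe sets above the dim level. The Tagln difference was 0.68 (limma adjusted p = 1, under 0.05 before adjustment, as in 8.12%). Tagln thus passed a fold over 1.5 together with an unadjusted p under 0.05, as did 0.382% of the probe sets above the dim level. The summed level of this list was 14.97 to 15.07 in knockout mice, against 14.92 to 15.09 in control mice. Of 5 parietal epithelium markers 4 were matched and only Cldn1 was above the dim level, with a difference of 0.74 (limma adjusted p = 1). Its knockout values were also all above its control values, as in 8.03%. The part of these cells in the values of Tjp1 and the other members was not tested.

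The differences of tubule and leukocyte markers varied with single mice. The median difference was -0.18 over 12 proximal tubule genes, 0.30 without control 2, -0.35 without control 1 and -0.55 without control 3, with summed levels of log2 13.56 to 13.99 in knockout mice, against 13.71 to 14.13 in control mice. It was -0.43 over 11 loop, distal tubule and collecting duct genes, 0 without control 2, -0.62 without control 1 and -0.77 without control 3, with summed levels of 11.49 to 11.96 in knockout mice, against 11.50 to 13.72 in control mice. For 12 leukocyte genes it was 0.60, -0.21 without control 2, 0.32 without knockout 3 and 1.04 without control 3, with summed levels of 14.67 to 15.48 in knockout mice, against 13.10 to 15.45 in control mice. None of these genes passed an unadjusted p under 0.05.

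The genes listed as partners of nephrin and Neph1 showed no common direction. Of 22 genes listed, 21 were matched and all were above the dim level. In knockout 13 were higher and 8 were lower. The median difference was 0.02, or 0.028 to 0.051 with 1 array left out, and the range was -0.20 to 0.19. None passed an adjusted p under 0.05, and 1 had an unadjusted p under 0.05, against 8.12% of all probe sets above the dim level. That gene was Actn4, an actin crosslinker mutated in familial focal segmental glomerulosclerosis, with 12.69, 12.68 and 12.62 in knockout mice, against 12.42, 12.55 and 12.58 in control mice. Every knockout value was above every control value, as in 8.03% of the probe sets above the dim level. The Actn4 difference was 0.15 (standard error 0.053, limma adjusted p = 1).

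The genes of the adaptors that bind the phosphorylated tail of nephrin differed in opposite directions, neither passing the test. Nck1 was at 10.27, 10.21 and 10.19 in knockout mice, against 10.45, 10.57 and 10.25 in control mice (difference -0.20, limma adjusted p = 1). Its paralogue Nck2 was at 10.37, 10.42 and 10.54 in knockout mice, against 10.19, 10.38 and 10.25 in control mice (difference 0.17, limma adjusted p = 1). In each the groups overlapped by a single pair of mice. Cd2ap, which binds both nephrin and dendrin, was at 12.12, 12.10 and 12.25 in knockout mice, against 12.10, 12.30 and 12.03 in control mice (difference 0.015, limma adjusted p = 1), with both groups over the same range.

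The genes whose pattern over the 6 arrays was most like that of Nphs1 were sought among 11870 probe sets of other single genes with a mean of at least log2 6 and a range above 0.2. They were Golim4, which encodes a Golgi membrane protein (r = 0.999), Galnt10, an enzyme that starts O-linked glycosylation (r = 0.997), 2310030G06Rik (r = 0.995), and Ndufb6 and Ndufa7, subunits of mitochondrial complex I (r = 0.993 and 0.992). For Kirrel they were Bet1, a membrane fusion protein of the transport from endoplasmic reticulum to Golgi (r = 0.996), Mrpl28, of the mitochondrial ribosome (r = 0.996), Ndufa13, another subunit of complex I (r = 0.994), Slc38a10, a member of an amino acid transporter family (r = 0.993), and Cetn2, a centriole protein (r = 0.993). These are the highest values picked from many candidates over only 6 arrays. Among the 11870, 168 probe sets reached an r over 0.95 with Nphs1 and 132 with Kirrel.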

How the data were processed

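Per the labels and the study's methods, GCRMA (version 2.30.0) was used by the authors on the array intensities, and the deposited values are log2 intensities of 45101 probe sets on 6 arrays. GCRMA subtracts a probe-specific background, quantile normalizes the arrays, which removes differences in total signal, and summarizes probes. Raw intensities were not analysed here. Array data hold no counts, and precision is limited by how many arrays there are and by how far a signal exceeds background.

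The genotype in the titles gave the groups. Probe sets were named through the platform annotation, of which 34958 name 1 gene, 932 several and 9211 none, and genes were placed with RefSeq on GRCm38.p6. The members and lists were chosen with earlier results of these data known. Genes named are the members, Ddn, some genes of the lists, and those most like Nphs1 and Kirrel. Some of the listed genes, nephrin partners among them, were chosen after their values were seen. The lead probe set of a gene is its highest by mean. Knockout was compared with control by limma (version 3.58.1, R 4.3.3; lmFit with eBayes, two-sided) over every probe set, with 4 residual and 0.312 prior degrees of freedom and Benjamini-Hochberg adjustment over all 45101. The fit was tested on simulated data. Single values were also compared by two-sided exact permutation tests. Alternatives were SAM, array weights, filters (a mean of log2 4 or 6, or a range above 0.1), centring on medians, an offset of 16, a prior with intensity trend and robust estimation, a repeated quantile normalization, a block for the replicate number, and leaving out each array in turn.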

Additional observations from a re-analysis of the deposited data

How the results depend on the processing

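The counts of slit diaphragm probe sets past the adjusted p and past the fold and p thresholds were 0 under each of the 16 alternatives. Filters on dim probe sets leave 5 to 8 of the 16 members. The lowest adjusted p of a member above the dim level was 1 over all probe sets and at its lowest 0.0958 (Kirrel), with arrays centred on their medians. Centring also moves the floor of dim probe sets and with it the adjustment: Kirrel3, which is dim, had a limma adjusted p of 0.243 there. The value of 0.0958 is therefore not read as a near call. Before adjustment Kirrel was under 0.05 with SAM, the filters, centring, array weights and the replicate block and without control 2, and Nphs1 with array weights and without control 2. In the main fit 8.12% of the probe sets above the dim level, and 3.63% of all, were under 0.05 before adjustment by limma. The shares under the alternatives are not given here, and the alternatives reuse the same arrays, so they are not separate support. The signs of Nphs1, Kirrel, Fat1 and the lead probe set of Magi3, not set relative to podocyte genes, held under all alternatives, while the difference of Tjp1 became 0.023 with array weights, 0.015 without knockout 1 and 0.072 without control 2 (-0.093 to 0.072 with 1 array left out). That of Kirrel3, which is dim, became -0.00024 without knockout 3 (-0.00024 to 0.038 with 1 array left out). The number of probe sets without overlap between groups was 1, and 9 with arrays centred on their medians, where 8 are dim probe sets of Kirrel3 and Magi1 whose floor is moved by the centring itself. It was 2 after quantile normalization once more (Kirrel and a dim probe set of Magi1), and 1 to 2 with 1 array left out, adding Nphs1 without knockout 1 or control 2, Fat1 without knockout 3, and Magi3 without control 3. Over all probe sets above the dim level, 13.7% had no overlap in either direction with all 6 arrays. Without control 2, 20.7% were higher without overlap. Such shares under the other alternatives are not given here. The Ddn difference had a limma adjusted p under 0.05 with the filters, centring, array weights, the intensity trend, the offset and the repeated quantile normalization. These adjusted p ranged from 2.12e-05 with the range filter to 0.0377 with the offset, where the difference was -7.54. The Ddn difference was -8.64 with the replicate block (limma adjusted p = 0.461). It was also -8.64 with SAM (adjusted p = 0.0896), whose corrected p has a floor with 3 arrays against 3. With 1 array left out it ranged from -8.76 to -8.46, with an adjusted p of 0.0771 to 0.192 except without control 2 (0.000552). Same-numbered knockout and control arrays correlated in their deviations by 0.09, 0.35 and 0.25, and 6 of 6 arrays correlated best with their own number, a hint from the data and not from the design, so the numbers were not taken as pairs. With the replicate block, Nphs1 was at 0.24 and Kirrel at 0.26 (limma adjusted p = 1 for both), and no member was called. With 3 arrays a group, differences smaller than the intervals given above were not detectable, and Kirrel3 and Magi1 had no signal to compare.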
